A study of Mus musculus with 12 samples.

Results

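The 10 mouse genes of the lymphotoxin and noncanonical NF-kB pathway described here were chosen by name from 55487 gene IDs in a lymph node count table. They are the ligands Lta, Ltb, Tnfsf14, Tnfsf11 and Tnfsf13b, the receptors Ltbr and Tnfrsf11a, the kinase Map3k14 and the transcription factor subunits Relb and Nfkb2. Each of the 10 matched 1 gene ID, and all 10 were among the 17301 genes with enough counts to be tested. RNA of lymph nodes was sequenced in 4 groups of 3 libraries, described by the submitters as biologically independent repetitions. T mice carried B16F10 cells, a mouse melanoma line, inoculated in the tongue, and NT mice did not. In NDE mice the pain-sensing nerves that innervate the tumour-draining lymph node were inhibited, and in NC mice they were not, which gives T NC and NT NC with nerves intact, and T NDE and NT NDE with nerves inhibited. The sources used here do not give the strain, sex and age of the mice, the way the nerves were inhibited, the time after inoculation or whether 1 library is 1 mouse. All groups share the tissue and the RNA extraction, and p-values measure the spread between these libraries.

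Lymphotoxin is made by lymphocytes, either as a secreted trimer of the Lta product or as a membrane complex of the Lta and Ltb products, and the membrane form binds the receptor encoded by Ltbr on stromal cells and myeloid cells. That receptor stabilizes the NF-kB inducing kinase, product of Map3k14, and the kinase starts the processing of the Nfkb2 precursor to the subunit that pairs with RelB. In lymph nodes this route is known for building and maintaining follicles, follicular dendritic cells and high endothelial venules, through chemokines such as Cxcl13 and adhesion molecules such as Madcam1.

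The start regions of Lta, Ltb and Nfkb2 are shown. The first pair encodes the membrane lymphotoxin complex from genes on either side of Tnf, and Nfkb2 is both a component and a known target of NF-kB. Sequences are from RefSeq (GRCm38.p6), read 5′ to 3′ on the gene's strand. Capitals mark matches to the kappa-B consensus, a motif of 10 bases searched on both strands in the 250 bases before each RefSeq start. The Lta stretch is chr17:35205352-35205601 on the minus strand, and its match begins 248 bases before the start. The Ltb stretch is chr17:35194257-35194438 on the plus strand, without the 68 bases that an annotated exon covers, and its match begins 87 bases before the RefSeq start. Nfkb2 windows lie largely in annotated exons, so only the sites of the window nearest the gene's start are given, at chr19:46304690-46304716 and chr19:46304718-46304736 on the plus strand. Each of these Nfkb2 sites holds 2 overlapping matches, and the gene's other windows hold 3 more.
Lta: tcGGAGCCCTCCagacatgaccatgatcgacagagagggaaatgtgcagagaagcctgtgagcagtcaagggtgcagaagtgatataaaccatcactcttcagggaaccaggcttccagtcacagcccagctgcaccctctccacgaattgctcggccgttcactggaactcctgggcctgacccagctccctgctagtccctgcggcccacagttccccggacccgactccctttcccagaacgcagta
Ltb: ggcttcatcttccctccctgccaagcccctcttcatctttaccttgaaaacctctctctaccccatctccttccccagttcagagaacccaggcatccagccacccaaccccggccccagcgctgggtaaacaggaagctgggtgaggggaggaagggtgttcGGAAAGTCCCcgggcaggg
Nfkb2 first site: atcgtcacGGGAATTCCCCccctcggg
Nfkb2 second site: ggccgaaaGGGGCTTTCCC
Windows were found for 9 of the 10 genes, 12 windows in all, and 7 of them (in Lta, Ltb, Tnfrsf11a, Tnfsf14 and Nfkb2) hold a match. Among all 32841 RefSeq windows of this length, 23.2% hold one. A match describes the letters only, and binding was not measured.

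Library totals ran from 16862953 to 24467873 counts. Values below are CPM, a gene's counts relative to the library total, scaled with TMM factors, which lay between 0.966 and 1.01. Sums over cell type markers are relative to the library total only, without these factors. Mitochondrial genes took 1.69% to 2.34% of the counts. The libraries NT NC replicate 2, NT NC replicate 3 and T NDE replicate 3 stood apart, with 997, 19567 and 25420 CPM of the salivary gland gene Bpifa2 (scaled to library totals) against 6.66 to 38.1 CPM in the other 9. B cell markers were found in every library, with a summed level of 6 genes between 2709 and 3955 CPM, and 7 T cell markers summed to between 859 and 1180 CPM. The 5 melanocyte markers summed to at most 2.49 CPM in any library. This sum ran from 1.33 to 1.59 CPM in NT NC and from 0.817 to 2.49 CPM in T NC. It ran from 0.896 to 1.24 CPM in NT NDE and from 1.33 to 1.79 CPM in T NDE. Dct and Tyrp1 had no count in the NT NC libraries, and Mlana and Tyrp1 had none in the NT NDE libraries. Tyr went the other way, at 0.73, 0.92 and 0.81 CPM in NT NC and 0.29, 0.51 and 0.41 CPM in T NC.

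Per kilobase of exon, Ltb was the most abundant of the 10 genes and Tnfrsf11a the least. Ltb averaged 257 CPM per kb over the 12 libraries, followed by Nfkb2 at 52.4, Relb at 33.6 and Lta at 20.5 CPM per kb. The ranges of these 4 over libraries did not overlap their neighbours in this order. Map3k14 (13.8 CPM per kb), Ltbr (10.8) and Tnfsf11 (10.3) came next, with overlapping ranges between neighbours. Tnfsf14 (4.64), Tnfsf13b (2.80) and Tnfrsf11a (2.73) were lowest, again with overlapping ranges. Map3k14 varied least over the libraries, from 80.6 to 97.5 CPM (coefficient of variation 4.76%), and Ltbr most, from 18.4 to 32.0 CPM (17.4%).

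**Figure D1:**
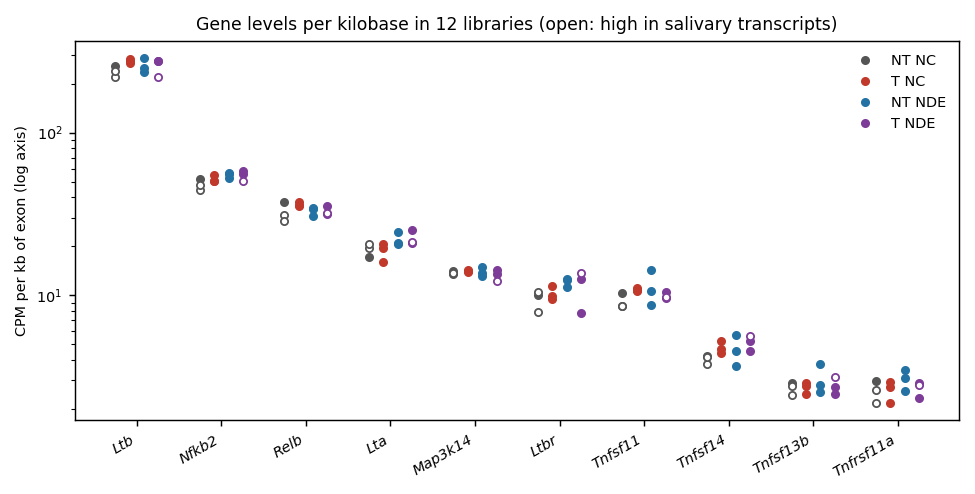
CPM per kilobase of exon (log axis) for the 10 genes in each of the 12 libraries, coloured by group, with open points for the 3 libraries high in salivary gland transcripts. The order of the genes, from Ltb at 257 CPM per kb to Tnfrsf11a at 2.73 CPM per kb on average, was much wider than the spread of any gene over libraries.

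No gene of the 10 passed the test in any of 7 comparisons: 4 between pairs of groups, the interaction, and the effects of nerve inhibition and of a tumour averaged over the other factor. The test was edgeR's quasi-likelihood test over all 17301 genes with Benjamini-Hochberg adjustment, and DESeq2 and limma-voom also called none of the 10. Few genes of any kind passed, so these counts of 0 stand beside a background of 0% of all genes in 5 comparisons, 0.00578% for T NDE against NT NDE (1 gene, Gm4617) and 0.0983% for the averaged effect of nerve inhibition (17 genes, 15 lower and 2 higher, the latter Maf and Il9r). The directions of the last count turned without the 3 libraries high in salivary transcripts, with 11 genes lower and 38 higher, and leaving out single libraries gave 0 (without NT NDE replicate 1 or 2) to 30 genes (without T NDE replicate 1). At an unadjusted p under 0.05, edgeR held 1 of the 10 for T NC against NT NC (7.8% of all genes), 1 for T NDE against T NC (5.83%) and 1 for NT NDE against NT NC (10.4%). It held 0 for T NDE against NT NDE (3.7%), 1 for the interaction (7.11%), 2 for averaged nerve inhibition (9.2%) and 0 for the averaged tumour effect (4.49%). With 10 genes, these counts are near the background shares.

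**Figure D2:**
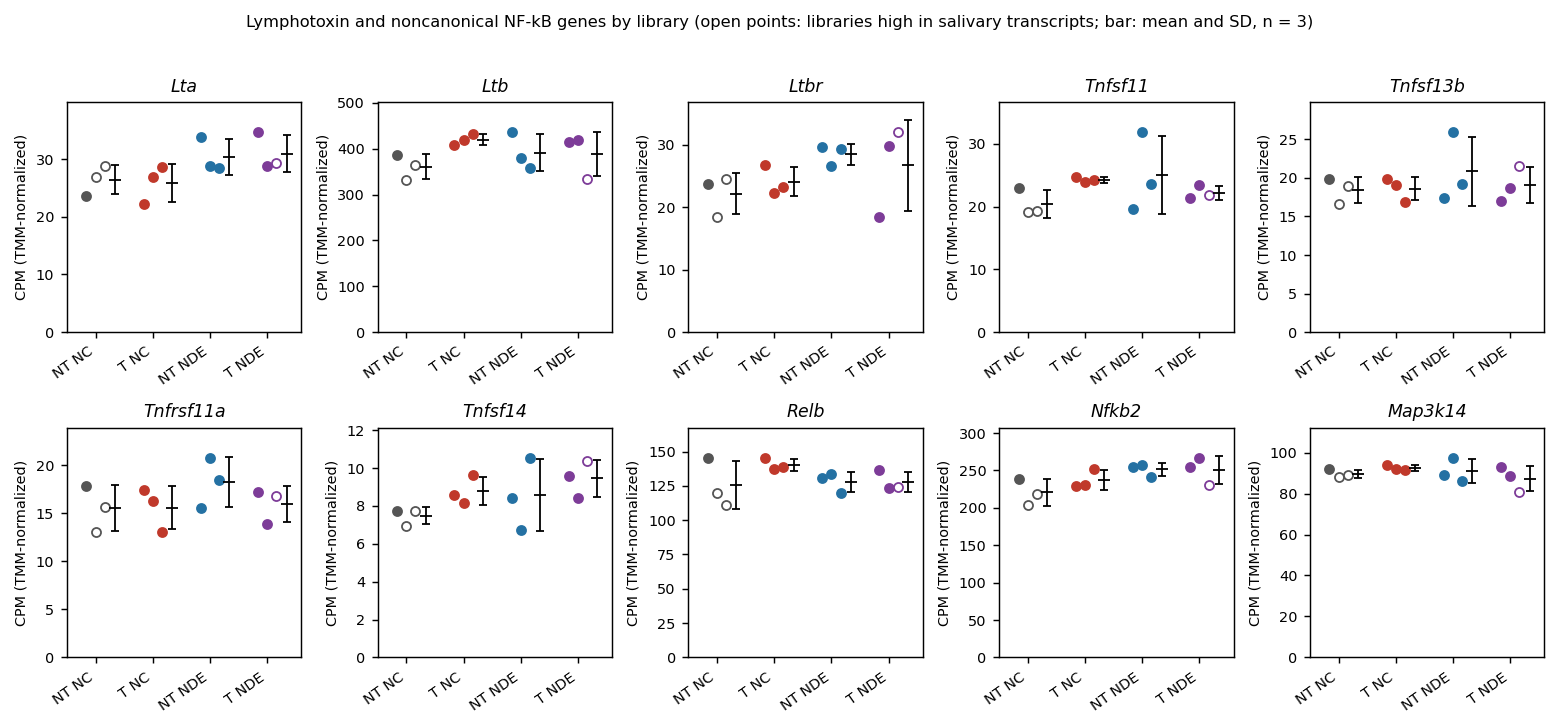
CPM of the 10 genes in every library by group (axes start at 0), with bars for mean and SD of 3 libraries and open points for the 3 libraries high in salivary gland transcripts. Most groups overlap; Ltb in T NC (408 to 431 CPM) lies above Ltb in NT NC (331 to 387 CPM).

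Ltb encodes the membrane-anchoring lymphotoxin subunit (ENSMUSG00000024399, mm10 chr17:35194439-35196320, plus strand). Its level was 387, 331 and 365 CPM in NT NC replicates 1 to 3, and 408, 418 and 431 CPM in T NC. Under nerve inhibition it was 436, 380 and 358 CPM in NT NDE and 415, 419 and 334 CPM in T NDE. All T NC libraries were above all NT NC libraries, while both NDE groups overlapped both NC groups. The mean was 361 ± 27.8 CPM in NT NC and 419 ± 11.9 CPM in T NC (SD, n = 3), a log2 difference of 0.22 (SE 0.092) with an edgeR adjusted p of 0.620 (unadjusted 0.0339). Without the 3 libraries high in salivary transcripts the difference was 0.13 with an adjusted p of 0.872. Fewer cells of a type and less RNA per cell cannot be told apart in whole node RNA.

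Lta encodes the soluble lymphotoxin subunit (ENSMUSG00000024402, chr17:35203165-35205351, minus strand) and lies beside Tnf on chromosome 17, with Ltb on the other side of Tnf. It was at 23.7, 26.9 and 28.7 CPM in NT NC and at 22.2, 26.8 and 28.6 CPM in T NC. In the NDE groups it was at 33.9, 28.8 and 28.4 CPM without a tumour and at 34.6, 28.8 and 29.4 CPM with one. Each T NDE library was above each T NC library, by a narrow margin for the closest pair, while NT NDE overlapped both NC groups. T NDE exceeded T NC by 0.26 on the log2 scale (SE 0.114, edgeR adjusted p = 0.850, unadjusted 0.0381). Averaged over tumour status, nerve inhibition went with 0.23 more Lta on that scale (SE 0.080, edgeR adjusted p = 0.406, unadjusted 0.0121), and 0.33 without the 3 libraries high in salivary transcripts (adjusted p = 0.272). Neighbouring Tnf, the proinflammatory cytokine gene next to Lta, had group means between 19.9 and 22.0 CPM. B cell marker sums in the NC libraries ranged from 2893 to 3807 CPM and in the NDE libraries from 2709 to 3955 CPM. T cell marker sums ranged from 951 to 1180 CPM and from 859 to 1052 CPM, and the part of either in the Lta values was not tested.

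Tnfsf14 encodes LIGHT, a second ligand of the lymphotoxin beta receptor (ENSMUSG00000005824, chr17:57189492-57194177, minus strand). Its level was 7.76, 6.95 and 7.72 CPM in NT NC and 8.58, 8.17 and 9.64 CPM in T NC, so those 2 groups did not overlap. In NT NDE it was 8.41, 6.75 and 10.6 CPM and in T NDE 9.59, 8.41 and 10.4 CPM, and these overlapped each other and T NC. The T NC difference from NT NC was 0.23 on the log2 scale (SE 0.162, edgeR adjusted p = 0.734). The tumour effect averaged over nerve status was 0.19 (SE 0.115, edgeR adjusted p = 0.992). The 7 neutrophil markers summed to 230 to 433 CPM in T NC, 76.3 to 165 CPM in NT NC, 187 to 240 CPM in NT NDE and 141 to 220 CPM in T NDE, and their part in the Tnfsf14 values was not tested.

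Tnfsf11 encodes RANKL, the ligand of the receptor RANK, which lymphoid tissue needs to form (ENSMUSG00000022015, chr14:78277445-78308043, minus strand). It was at 23.0, 19.1 and 19.3 CPM in NT NC, at 24.8, 23.9 and 24.2 CPM in T NC, at 19.6, 31.8 and 23.6 CPM in NT NDE and at 21.4, 23.4 and 21.8 CPM in T NDE. T NC lay above both NT NC and T NDE without overlap, and 1 NT NDE library was the highest of all 12. T NC exceeded NT NC by 0.25 (log2, SE 0.139, edgeR adjusted p = 0.683). T NDE was below T NC, with a log2 fold change of -0.13 (SE 0.139, edgeR adjusted p = 0.926). The interaction, the nerve effect with a tumour less that without, was -0.42 (SE 0.196, edgeR adjusted p = 0.699, unadjusted 0.0494). With the 3 libraries high in salivary transcripts left out it was -0.24, and the T NC difference from NT NC was 0.09.

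Tnfsf13b encodes BAFF, a survival factor of B cells (ENSMUSG00000031497, chr8:10006467-10039072, plus strand), and overlaps the predicted gene Gm44789. Its 12 values ran from 16.6 to 25.9 CPM and every pair of groups overlapped. The highest group mean was 20.9 ± 4.47 CPM (SD, n = 3) in NT NDE, where replicate 2 alone was above all other libraries, and the lowest was 18.5 ± 1.67 CPM in NT NC.

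Ltbr encodes the lymphotoxin beta receptor (ENSMUSG00000030339, chr6:125306571-125313885, minus strand). It was at 23.7, 18.4 and 24.5 CPM in NT NC, at 26.7, 22.3 and 23.3 CPM in T NC, at 29.6, 26.6 and 29.3 CPM in NT NDE and at 18.4, 29.8 and 32.0 CPM in T NDE. NT NDE lay above NT NC without overlap, and T NDE held both the lowest and the highest library of all 12. The mean was 22.2 ± 3.29 CPM in NT NC and 28.5 ± 1.69 CPM in NT NDE (SD, n = 3), a log2 difference of 0.36 (SE 0.175, 95% interval -0.02 to 0.74, edgeR adjusted p = 0.501). Lymphatic endothelium markers, cells that carry this receptor among others, summed to 220 to 262 CPM in NT NC and 234 to 266 CPM in NT NDE. In T NDE they ran from 142 to 287 CPM. Their part in the Ltbr values was not tested.

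Tnfrsf11a encodes RANK (ENSMUSG00000026321, chr1:105780718-105847981, plus strand). Its values ran from 13.0 to 20.8 CPM, with overlap between every pair of groups. The largest group mean was 18.3 ± 2.64 CPM in NT NDE and the other groups had means from 15.5 to 16.0 CPM. It had the smallest p of the 10 genes for T NDE against NT NDE, with a log2 fold change of -0.19 (SE 0.149, edgeR adjusted p = 1.000, unadjusted 0.214).

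Map3k14 encodes the NF-kB inducing kinase, whose activity is set mainly by protein stability (ENSMUSG00000020941, chr11:103219762-103267472, minus strand). Its group means lay between 87.3 and 92.4 CPM and every pair of groups overlapped. The log2 differences between pairs of groups ran from -0.08 to 0.04. Their 95% intervals were the narrowest of the 10 genes, for example -0.09 to 0.18 for T NC against NT NC.

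Relb encodes the subunit that pairs with the processed Nfkb2 product (ENSMUSG00000002983, chr7:19606217-19629438, minus strand). It was at 146, 120 and 111 CPM in NT NC, at 145, 137 and 138 CPM in T NC, at 131, 134 and 120 CPM in NT NDE and at 136, 123 and 124 CPM in T NDE. T NC lay above both NDE groups, by less than 1 CPM for the closest pair with T NDE, and NT NC held both the highest and the lowest library of all 12. T NDE against T NC gave a log2 fold change of -0.13 (SE 0.084, edgeR adjusted p = 0.896).

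Nfkb2 encodes the precursor that the noncanonical route processes (ENSMUSG00000025225, chr19:46304320-46312385, plus strand). It was at 239, 204 and 219 CPM in NT NC and at 230, 230 and 252 CPM in T NC. With nerves inhibited it was at 255, 258 and 242 CPM without a tumour and at 255, 267 and 231 CPM with one. NT NDE lay above NT NC without overlap, and T NDE overlapped T NC. The NT NDE difference from NT NC was 0.19 on the log2 scale (SE 0.072, edgeR adjusted p = 0.398, unadjusted 0.0195). Averaged over tumour status, nerve inhibition went with a difference of 0.14 (SE 0.051, edgeR adjusted p = 0.437, unadjusted 0.0184). Leaving out the 3 libraries high in salivary transcripts, these were 0.07 (adjusted p = 0.916) and 0.11 (adjusted p = 0.587). Nfkb2 overlaps Psd and AC114539.1 on the opposite strand, with group means up to 3.50 and 21.7 CPM. Reads of overlapping genes cannot be divided where the strand setting of the counting is unknown.

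Across the 10 genes, the groups stood mostly within each other's range. Of 30 neighbouring pairs in the order of group means, 3 for each gene, 28 overlapped and 2 did not, Tnfsf11 in T NC over T NDE and Relb in T NC over NT NDE. T NC was above NT NC without overlap for 3 genes (Ltb, Tnfsf11 and Tnfsf14, against 7.78% of all genes) and below for 0 (7.23%). T NDE was above T NC for 1 (Lta, against 4.55% of all genes) and below for 2 (Tnfsf11 and Relb, against 4.59%). NT NDE was above NT NC for 2 (Ltbr and Nfkb2, against 9.7% of all genes) and below for 0 (9.18%). T NDE and NT NDE overlapped for all 10, where 4.1% of all genes were higher and 4.33% lower without overlap.

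**Figure D3:**
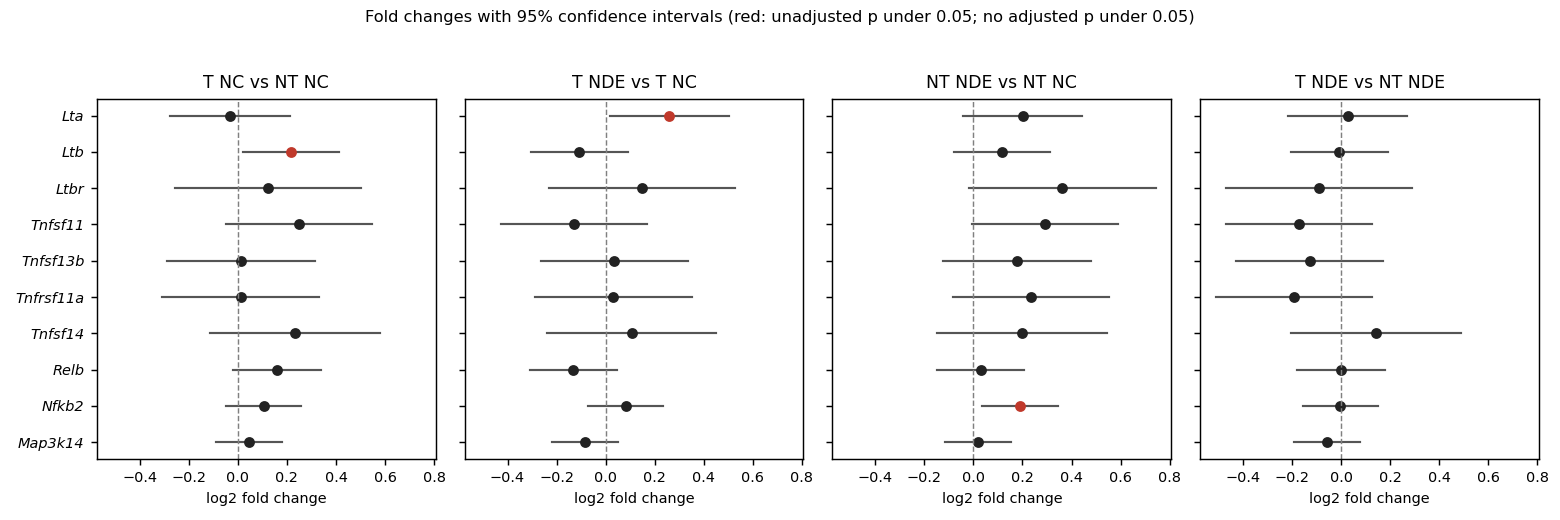
Log2 fold changes (edgeR) of the 10 genes in the 4 comparisons between pairs of groups, with 95% confidence intervals; red points have an unadjusted p under 0.05. The red points are Ltb at 0.22, Lta at 0.26 and Nfkb2 at 0.19, and no gene passed the adjusted threshold.

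NT NC had the lowest mean of the 4 groups for 8 of the 10 genes. NT NDE was higher than NT NC in the fitted log2 difference for 10 of 10 genes, with a median of 0.19, where the median of all genes was 0.00 and 51.1% were higher. T NC was higher than NT NC for 9 of 10, with a median of 0.11 against -0.01 for all genes, of which 48.0% were higher. These comparisons share the NT NC libraries, of which 2 are high in salivary transcripts. Without those and T NDE replicate 3, the medians were 0.07 with 8 of 10 higher and 0.03 with 6 of 10 higher. NT NC replicate 2 was the lowest library of all 12 for Ltb, Tnfsf11, Tnfsf13b, Tnfrsf11a and Nfkb2, and without it alone the medians were 0.13 and 0.04. Omitting NT NC replicate 3 gave 0.21 and 0.09, and omitting NT NC replicate 1 gave 0.23 and 0.17. For T NDE against T NC, 6 genes were higher and 4 lower (52.7% of all genes were higher), with a median of 0.03. That median turned to -0.06 without T NC replicate 3 and to -0.01 without T NDE replicate 3 or without all 3 libraries. Omitting T NC replicate 1 gave 0.07, and omitting T NDE replicate 1 gave 0.01. For T NDE against NT NDE, 2 were higher and 8 lower (50.3% of all genes were higher), with a median of -0.03. Leaving out single libraries gave medians from -0.07 (without NT NDE replicate 3 or T NDE replicate 2) to 0.01 (without T NDE replicate 3). These included -0.00 when NT NDE replicate 2 was omitted and -0.05 when T NDE replicate 1 was. The median was 0.02, with 6 of 10 higher, without the 3 libraries high in salivary transcripts.

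The interaction was below 0 for 9 of 10 genes, while it was above 0 for 51.1% of all genes. The median was -0.15 against 0.01 for all genes, and -0.05 without the 3 libraries high in salivary transcripts. Omitting NT NC replicate 2 gave a median of -0.09, and omitting replicate 1 of that group gave -0.23. Averaged over tumour status, nerve inhibition gave a median of 0.12 with 8 of 10 higher (53.7% of all genes), and 0.01 without those libraries. Omission of NT NDE replicate 2 gave 0.05, that of NT NC replicate 2 gave 0.07 and that of T NC replicate 3 gave 0.08. The averaged tumour effect had a median of 0.03 with 6 of 10 higher (49.6% of all genes), and 0.00 without the 3 libraries. With NT NC replicate 2 omitted it was 0.01, with replicate 1 of that group omitted 0.06, and with NT NDE replicate 2, T NDE replicate 1 or T NC replicate 2 omitted in turn 0.05.

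Ratios of partner genes within a library do not depend on library scaling. The ratio of Nfkb2 to Nfkb1, the precursor gene of the canonical route, was 1.90, 1.65 and 1.73 per kb in NT NC and 1.86, 1.80 and 1.91 in T NC. It was 2.00, 2.04 and 1.96 in NT NDE and 1.99, 1.99 and 2.01 in T NDE. All 6 NDE libraries (1.96 to 2.04) thus lay above all 6 NC libraries (1.65 to 1.91). Over both tumour strata the log2 difference was 0.15, with an exact two-sided permutation p of 0.005 within strata, the smallest that 400 arrangements allow, and an adjusted p of 0.12 over 24 ratio tests. This test was added after the ratios were seen to separate. Full separation of NDE from NC gives the smallest p by itself, so this p adds nothing to the ranges above. Without the 3 libraries high in salivary transcripts the difference was 0.09, with 1 library left in NT NC, and no test is given for it. In the separate strata the difference was 0.11 with a tumour and 0.19 without, each at the smallest exact permutation p that 3 against 3 libraries allow, 0.1 (adjusted p = 0.48). Without the 3 libraries the difference without a tumour was 0.07. Nfkb1 itself had group means from 330 to 336 CPM.

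The ratio of Ltb to Lta was 14.9, 11.3 and 11.6 per kb in NT NC, 16.8, 14.2 and 13.7 in T NC, 11.5 to 12.04 in NT NDE and 10.9, 13.3 and 10.4 in T NDE. T NC lay above T NDE without overlap, 14.9 ± 1.62 against 11.5 ± 1.53 (SD, n = 3, exact permutation p = 0.1, the smallest possible, adjusted 0.48). Averaged over tumour status the NDE to NC difference was -0.23 on the log2 scale (exact permutation p = 0.075, adjusted 0.48). The ratio of Relb to Rela ran from 0.688 to 0.880 per kb and overlapped between every pair of groups. The ratio of Tnfsf11 to Tnfrsf11b, the gene of the decoy receptor osteoprotegerin, ran from 11.9 to 25.1 with overlap throughout, and rests on a Tnfrsf11b level of 0.958 to 2.48 CPM.

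**Figure D4:**
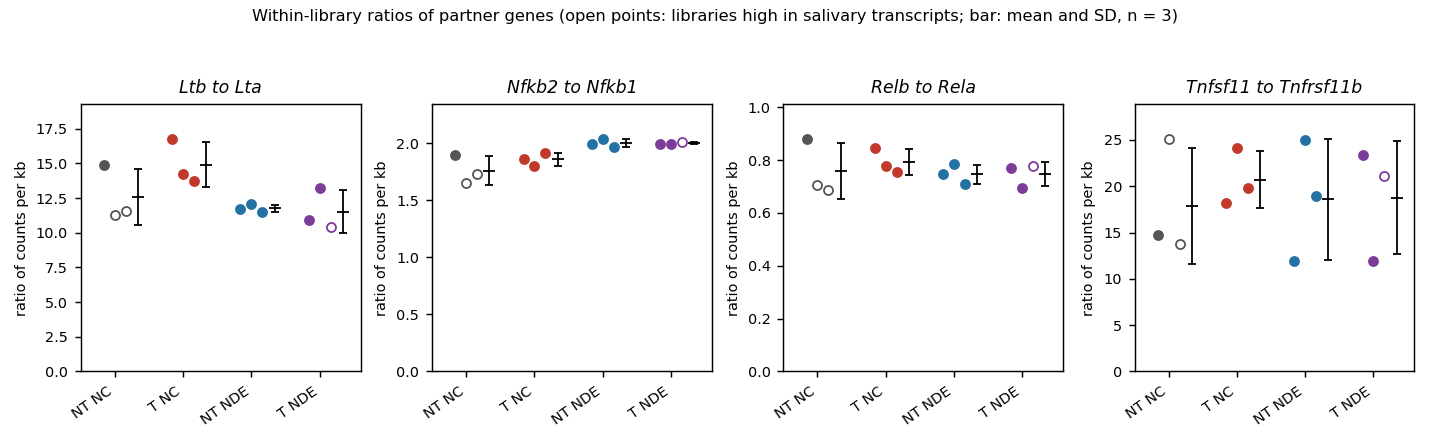
Ratios of counts per kilobase of 4 gene pairs in each library by group (axes start at 0), with bars for mean and SD of 3 libraries and open points for the 3 libraries high in salivary gland transcripts. For Nfkb2 to Nfkb1 the NDE libraries (1.96 to 2.04) lie above the NC libraries (1.65 to 1.91), and the other 3 ratios overlap between NC and NDE.

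The other genes of the pathway were followed through 4 lists, and no gene of them passed edgeR's adjusted threshold in any comparison. Among 15 receptors and ligands of the same families, for T NC against NT NC 10 were higher and 5 lower (median log2 difference 0.06). For T NDE against T NC 5 were higher and 10 lower (median -0.07). Of all genes, 48.0% and 52.7% were higher in these comparisons. Tnfrsf17, the receptor BCMA of plasma cells, was at 1.19, 1.43 and 1.36 CPM in T NC and at 0.384, 0.608 and 0.676 CPM in T NDE. Those groups did not overlap, and its log2 fold change was -1.23 (SE 0.377, edgeR adjusted p = 0.705). This rests on a low level, at most 1.92 CPM in any library. Cd40lg, the T cell ligand of CD40, was at 16.1, 15.2 and 13.9 CPM in T NC and at 11.7 to 12.7 CPM in T NDE, a log2 fold change of -0.32 (SE 0.141, edgeR adjusted p = 0.850). The 7 T cell markers were all lower in that comparison (median -0.23), with none past the adjusted threshold, and their part in the Cd40lg values was not tested. Tnfrsf14, a receptor of LIGHT, had a log2 difference of 0.21 between T NC and NT NC (SE 0.090, edgeR adjusted p = 0.617), with overlapping groups.

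Of 14 signalling intermediates, Bcl3 had the smallest p for NT NDE against NT NC. Bcl3 encodes an atypical IkB protein that binds the processed NF-kB subunits. It was at 60.7, 65.9 and 65.9 CPM in NT NC, at 73.7, 87.5 and 96.5 CPM in T NC, at 99.8, 97.3 and 97.5 CPM in NT NDE and at 82.5, 111 and 87.0 CPM in T NDE. All libraries of the other 3 groups were above all NT NC libraries. NT NDE exceeded NT NC by 0.61 on the log2 scale (SE 0.109, edgeR adjusted p = 0.101), and T NC exceeded NT NC by 0.42 (SE 0.109, edgeR adjusted p = 0.466). DESeq2 called the first difference (adjusted p = 0.000268), as did edgeR without the filter on low counts (adjusted p = 0.0462) and with only the 6 libraries compared (adjusted p = 0.00204). Limma-voom called no gene in that comparison. When the 3 libraries high in salivary transcripts were left out, the first difference was 0.70 (edgeR adjusted p = 0.277). The interaction was -0.49 (SE 0.154, edgeR adjusted p = 0.624). The median of the 14 lay between -0.02 and 0.02 in every comparison. Ikbkg, the regulatory subunit of the canonical kinase complex, had a log2 fold change of -0.15 for NT NDE against NT NC, without overlap (SE 0.065, edgeR adjusted p = 0.446). Nfkbid, another atypical IkB gene, had an averaged nerve difference of 0.18 (SE 0.067, edgeR adjusted p = 0.435).

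The 9 canonical NF-kB genes differed little. Their median log2 difference was 0.03 for T NC against NT NC, 0.00 for T NDE against T NC and 0.02 for NT NDE against NT NC. Cyld, a deubiquitinase that restrains NF-kB signalling, was at 203, 203 and 204 CPM in NT NC and at 186, 187 and 189 CPM in NT NDE, without overlap. Its log2 fold change was -0.12 (SE 0.048, edgeR adjusted p = 0.426).

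The last list holds 15 stromal and follicular genes chosen as linked to lymphotoxin, and their dependence on it was not tested. Differences were tested for 13 of them, and 12 of the 13 were higher in NT NDE than in NT NC (51.1% of all genes). The median log2 difference was 0.28, 7 of the 13 had an unadjusted p under 0.05 (10.4% of all genes) and 0 passed the adjusted threshold. For T NC against NT NC, 6 were higher and 7 lower (median -0.01), with 5 at an unadjusted p under 0.05 (7.8% of all genes), all higher. For T NDE against T NC, 7 were higher and 6 lower (median 0.04). At an unadjusted p under 0.05, 2 were higher and 2 lower there (5.83% of all genes). For T NDE against NT NDE, 2 were higher and 11 lower (median -0.12), where 50.3% of all genes were higher. Both comparisons with NT NC share its libraries, of which replicates 2 and 3 are high in salivary transcripts. Cxcl13, a chemokine by which B cells find follicles, was at 157, 175 and 189 CPM in NT NC, at 236, 226 and 227 CPM in T NC, at 295, 276 and 264 CPM in NT NDE and at 168, 239 and 241 CPM in T NDE. NT NDE lay above all other groups, and T NDE replicate 1 was at the level of NT NC. NT NDE exceeded NT NC by 0.68 (SE 0.115, edgeR adjusted p = 0.101), which DESeq2 called (adjusted p = 2.73e-05), as did edgeR with only the 6 libraries compared (adjusted p = 0.00218) and without T NDE replicate 1 (adjusted p = 0.00136). The Cxcl13 interaction was -0.77 (SE 0.162, edgeR adjusted p = 0.501, DESeq2 adjusted p = 0.00284). Limma-voom called no gene for the interaction or for NT NDE against NT NC, so neither Cxcl13 result was called there. Without the 3 libraries high in salivary transcripts, the Cxcl13 difference of NT NDE from NT NC was 0.82, with 1 library left in NT NC.

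Pdpn, the podoplanin gene of fibroblastic reticular cells and lymphatic endothelium, was at 8.15, 7.91 and 8.27 CPM in NT NC, at 12.3, 10.5 and 9.52 CPM in T NC, at 10.02 to 10.7 CPM in NT NDE and at 7.95, 6.13 and 7.20 CPM in T NDE. T NDE lay below T NC and below NT NDE without overlap. T NDE against T NC gave -0.61 (SE 0.137, edgeR adjusted p = 0.447, DESeq2 adjusted p = 0.0255), and the interaction was -0.96 (SE 0.194, edgeR adjusted p = 0.462, DESeq2 adjusted p = 0.00518). Neither was called by limma-voom (adjusted p = 0.383 and 0.541). Without the 3 libraries high in salivary transcripts these Pdpn values were -0.62 and -0.97. Mfge8, a product of follicular dendritic cells, was at 643, 541 and 582 CPM in NT NC and at 684, 742 and 764 CPM in NT NDE. The difference was 0.31 (SE 0.082, edgeR adjusted p = 0.226, DESeq2 adjusted p = 0.0373, limma-voom adjusted p = 0.238). It was 0.18 without the 3 libraries high in salivary transcripts. Icam1, an adhesion molecule and NF-kB target, was 0.24 higher in both T NC and NT NDE than in NT NC (SE 0.069 each, edgeR adjusted p = 0.493 and 0.276), and 0.13 and 0.12 without those 3 libraries. Madcam1, the addressin of follicular dendritic cells and venules, had an interaction of -0.70 (SE 0.214, edgeR adjusted p = 0.622), and -0.34 without those libraries.

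**Figure D5:**
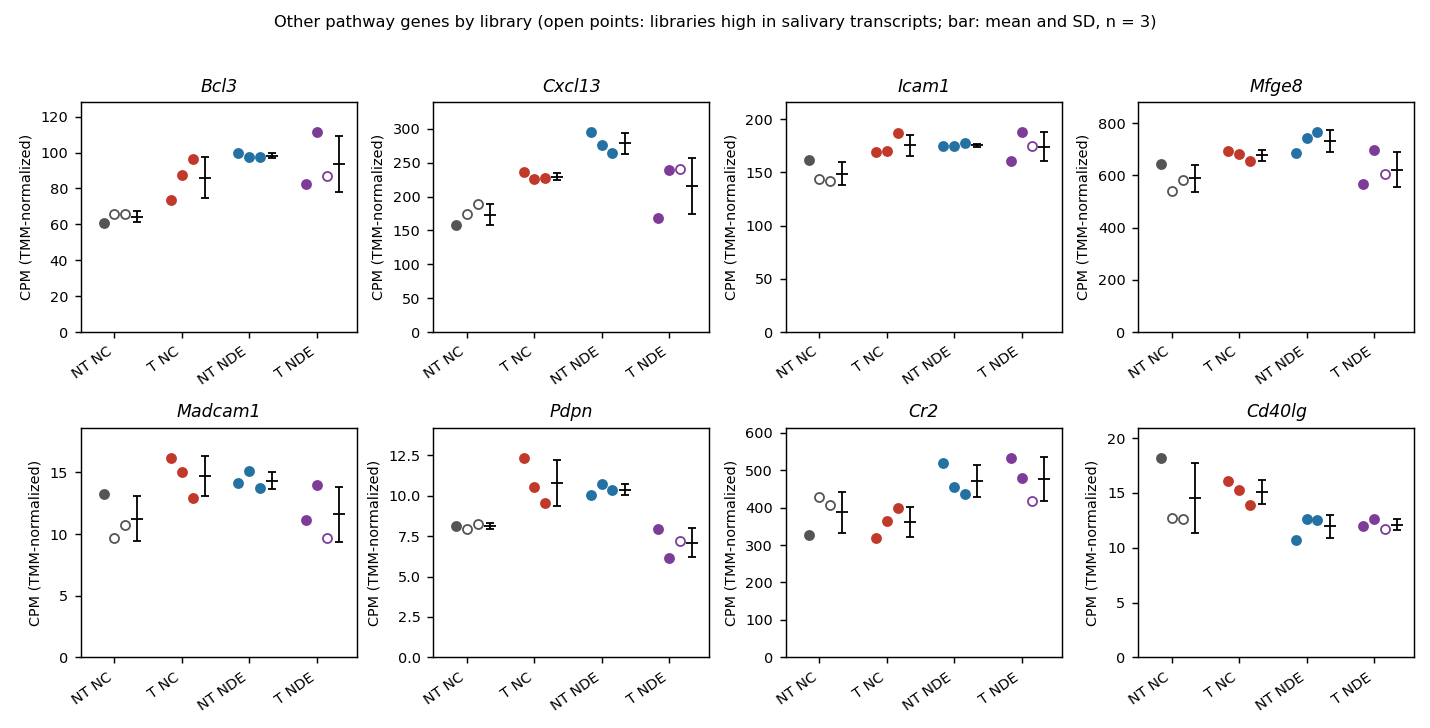
CPM of 8 other pathway genes in every library by group (axes start at 0), with bars for mean and SD of 3 libraries and open points for the 3 libraries high in salivary gland transcripts. Bcl3 and Cxcl13 in NT NDE lie above NT NC (97.3 to 99.8 against 60.7 to 65.9 CPM, and 264 to 295 against 157 to 189 CPM), and Pdpn in T NDE lies below T NC.

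Cr2, the complement receptor of B cells and follicular dendritic cells, was at 326, 429 and 406 CPM in NT NC, at 319, 363 and 400 CPM in T NC, at 520, 455 and 437 CPM in NT NDE and at 533, 478 and 417 CPM in T NDE. Every NDE library except T NDE replicate 3 was above every NC library. The averaged nerve difference was 0.34 (SE 0.085, edgeR adjusted p = 0.267, DESeq2 adjusted p = 0.0126, limma-voom adjusted p = 0.287). Without the 3 libraries high in salivary transcripts it was 0.51 (edgeR adjusted p = 0.0268). Chst4 and Fut7, enzymes that make the ligands of lymphocyte homing in high endothelial venules, had averaged nerve differences of 0.33 (SE 0.098) and 0.25 (SE 0.088), with edgeR adjusted p of 0.329 and 0.406. The 7 follicular dendritic cell markers, of which Cr2, Cxcl13, Mfge8 and Madcam1 are also in the stromal list, summed to 2540 to 2757 CPM in NT NC, 2844 to 3004 CPM in T NC, 3173 to 3237 CPM in NT NDE and 2626 to 2994 CPM in T NDE. High endothelial venule markers summed to 325 to 479 CPM in NT NC, 359 to 506 CPM in T NC, 456 to 768 CPM in NT NDE and 395 to 606 CPM in T NDE. The part of these cells in the gene values was not tested.

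The genes most like each of the 10 were found by Pearson correlation of log2 CPM over the 12 libraries among 11034 genes. These points share the groups and the library scaling, and the correlations are descriptions only. Lta was most like Cr2 (r = 0.93), Cdk6 (0.91), which encodes a cell cycle kinase, and Pold3 (0.91), which encodes a DNA polymerase subunit. Ltb was most like Klf2 (0.94), a transcription factor gene of resting lymphocytes, Ptprcap (0.94), which encodes a partner of CD45, and Ino80b (0.92). Without the 3 libraries high in salivary transcripts the Ltb values were 0.84, 0.84 and 0.79, and those of Lta 0.95, 0.92 and 0.94. Nfkb2 was most like Vps51 (0.97), Polrmt (0.93) and Lpcat4 (0.92). Ltbr was most like Por (0.94), Nudt19 (0.93) and Gpaa1 (0.92). Relb was most like Mxd1 (0.93), Gtpbp1 (0.88) and Fscn1 (0.88), the last a marker of mature dendritic cells, and Tnfsf13b was most like Uxs1 (0.91), Rbpms (0.90) and Rnf150 (0.89). For Tnfsf11, Tnfrsf11a, Tnfsf14 and Map3k14 the highest r values were 0.84 (Dcun1d2), 0.86 (Plxnd1), 0.80 (Cfd) and 0.89 (Map4k4). Among the 10 genes themselves, 30 of 45 pairs correlated positively, from -0.53 to 0.75 (Tnfsf13b with Tnfrsf11a) with a median of 0.22. These values changed when the 3 libraries high in salivary transcripts were left out: in the other 9, 20 of 45 pairs were positive, from -0.76 (Ltb with Tnfrsf11a, -0.11 in all 12) to 0.87 (Tnfsf11 with Tnfsf13b), with a median of -0.04. Relb with Nfkb2 went from 0.33 to -0.50.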

How the data were processed

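Whole-number read counts per gene were deposited by the authors in 1 table of 12 lymph node libraries, 3 for each of 4 groups taken from the labels, not normalized. HISAT2 2.0 and the mm10 build are named per the submitters' processing notes. The sources used here do not name the counter, its annotation, its strand setting or how multi-mapping reads were treated. Symbols, positions and exon lengths came from GENCODE M21 (55227 of 55487 IDs had a symbol). The 260 IDs without one took under 0.01% of the counts and stayed in.

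The 10 genes, the gene lists and the alternatives were chosen with earlier results of these data known. Counts were fitted in R 4.3.3 with edgeR 4.0.16 (filterByExpr with a minimum count of 10 and a total of 15, TMM, robust quasi-likelihood, 1 mean per group over 12 libraries), with Benjamini-Hochberg adjustment over 17301 genes and a threshold of 0.05. The script was tested on simulated data. Alternatives used DESeq2 1.42.0, limma 3.58.1 (voom), other scalings and filters, a replicate block, a Bpifa2 covariate and fewer libraries. Partner ratios, per kb of exon, had exact two-sided permutation tests over libraries: 16 between pairs of groups were planned, and 8 within strata were added after the values were seen, with adjustment over all 24.

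A fold change with its test is given for a gene of the 10 where its unadjusted p was under 0.05, its groups did not overlap or it had the smallest p of the comparison. Genes of the other lists are named at an unadjusted p under 0.05, at most 4 per list and comparison, and not every comparison of each is printed. Like genes needed a mean of 5 CPM, with a prior count of 2. Ccl19 and Ccl21a have 2 gene IDs each and were left out of the lists after the files were seen, since reads of near-identical copies cannot be divided.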

Additional observations from a re-analysis of the deposited data

How the results depend on the processing

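No gene of the 10 was called in any of 158 combinations of comparison and alternative (23 alternatives, the 12 that leave out 1 library each included), and the smallest adjusted p of a member was 0.134, for the averaged effect of nerve inhibition without T NDE replicate 1. None of the 295 values of named members and none of the 836 values of other pathway genes changed sign, and 15 of the latter became called, 9 of them under DESeq2. The median log2 difference of all genes stayed within 0.0131 of 0 under every alternative. Scaling to library totals moved none of the 40 group means by over 1 SD. The labels do not say whether replicate numbers pair the samples, and the main fit did not use them so. Same-numbered libraries of different groups correlated in their deviations from the group means between -0.13 and 0.52 (median 0.01, 18 pairs). Libraries with other numbers correlated between -0.45 and 0.34 (median -0.002, 36 pairs). The value of 0.52 joined NT NC replicate 3 and T NDE replicate 3, both high in salivary transcripts. Such correlations cannot settle a pairing, since they also follow shared salivary transcripts. A replicate block called none of the 10 and 3, 3, 1 and 1 of all genes for nerve inhibition in tumour-free mice, a tumour under nerve inhibition, the interaction and averaged nerve inhibition, where the unblocked fit called 0, 1, 0 and 17.

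Counts over all genes depended on the setting. DESeq2 called 40, 44, 138, 17, 43, 130 and 6 genes for a tumour with nerves intact, nerve inhibition in tumour-bearing mice, nerve inhibition in tumour-free mice, a tumour under nerve inhibition, the interaction, averaged nerve inhibition and the averaged tumour effect, against 0, 0, 0, 1, 0, 17 and 0 in edgeR. In the same order, edgeR with no filter called 4, 12, 43, 1, 1, 41 and 2, and without the 3 libraries high in salivary transcripts 7, 1, 33, 28, 3, 49 (38 higher) and 66 (10 higher). In the latter fit NT NC holds 1 library, assumed to vary like the other groups. Restricting the fit to the groups compared called 37 for NT NDE against NT NC. For averaged nerve inhibition limma-voom called 5 and the Bpifa2 covariate 6. Leaving out 1 library gave 0 to 3, 0 to 1, 0 to 7, 0 to 4, 0 to 2, 0 to 30 and 0 to 22. Of 216 ratio values, 6 moved, all without the 3 libraries. Against NT NC, the log2 ratio of Ltb to Lta went from 0.25 to -0.01 in T NC and from -0.09 to -0.34 in NT NDE, that of Nfkb2 to Nfkb1 from 0.08 to -0.03 and from 0.19 to 0.07, and that of Relb to Rela from 0.07 to -0.15 and from -0.01 to -0.24. The cause was not tested.

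With 3 libraries per group the 95% intervals of the 10 genes reached from 0.13 (Map3k14) to 0.38 (Ltbr) on either side of the log2 difference between 2 groups. These intervals are not adjusted for the number of genes, so they are no limit of detection, and larger differences can also miss the adjusted threshold. Tnfsf14 rests on as few as 126 counts in a library.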
